A study of Mus musculus with 4 samples.

Results

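The distal end of the mouse X chromosome, from 140 Mb onwards in the mm9 build, was examined for silencing of the inactive X in fibroblasts that lack functional SmcHD1. The deposited table held 149 genes with a start at or beyond 140000000. Kdm5c, Smc1a, Tmem29 and Tmsb4x were left out, as were 7 genes of the Magea and Mageb families, so 138 genes of 22691 in the table were studied. They spanned positions 140236780 to 166428729 of X. Of the 138 genes, 70 had enough allele-specific reads to be informative, which means that a paternal share was given in all 4 libraries and that the reads averaged 20 or more per library. Another 34 genes had some reads but too few, and 34 had none. Pls3 has its start before 140 Mb and was not included.

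In female mammals 1 X chromosome of each cell is silenced. Xist RNA coats the chosen chromosome, repressive histone marks and promoter DNA methylation follow, and most genes stay off through later cell divisions, while a minority escape. SmcHD1, a noncanonical member of the SMC proteins, is enriched on the inactive X and is known for a role in keeping it silent and in the methylation of a part of its CpG islands.

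The samples were mouse embryonic fibroblasts from female fetuses at E13.5, and the question was how loss of SmcHD1 affects this silencing. The MD1 group (2 libraries) had the genotype Smchd1 MD1/MD1; Xist deltaA/+, and the WT group (2 libraries) had Smchd1 +/+; Xist deltaA/+. Both groups carried Xist deltaA on the X from the C57BL6/J mother, and the fathers were F1 males of JF1 and C57BL6/J. The deltaA form of Xist does not silence the X that bears it. The inactive X was therefore the one from the father, which is JF1 in sequence, and a read that carries a JF1 variant was counted as paternal. Nothing in the labels ties the 2 libraries of a group to different fetuses. The p-values therefore measure the spread between libraries, which may be technical.

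Allele-specific reads of all X-linked genes numbered 704635 and 806626 in the MD1 libraries and 544330 and 521768 in the WT libraries. Those of the 70 informative distal genes numbered 65319 and 86368 in MD1 and 55512 and 64369 in WT. Smchd1 itself, which checks the labels, had 1.94 FPKM in MD1 and 14.7 FPKM in WT, and Xist reads were paternal at 99.9% in both groups. All 11 fibroblast markers examined, Col1a1, Col1a2 and Vim among them, had at least 4.79 FPKM in each group, with sums of 4726 FPKM in MD1 and 5788 FPKM in WT. Col1a1, Col1a2, Col3a1, Pdgfrb, Prrx1 and Twist1 were lower in MD1 and the other fibroblast markers higher. Summed markers differed between groups for skeletal muscle (3.04 FPKM in MD1 and 11.2 FPKM in WT over 3 genes) and cartilage (91.95 FPKM in MD1 and 139.2 FPKM in WT over 3 genes). Of the cartilage markers Col2a1 and Acan were lower and Sox9 higher in MD1. Of 3 nerve markers Tubb3 and Stmn2 were higher and Map2 lower in MD1 (sums of 58.5 FPKM in MD1 and 32.5 FPKM in WT). Sums for epithelium, endothelium and blood were 24.8, 3.29 and 11.7 FPKM in MD1 and 19.95, 3.38 and 11.7 FPKM in WT. FPKM here has no replicates, and the markers' part in the results was not tested.

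The promoters of the most and the least responsive genes are shown first, to let the sequence at the extremes be compared. The 2 genes with the largest rise in paternal share, Ofd1 and Yy2, are set against Capn6 and Maged2, the 2 genes with the lowest paternal share in MD1 among those averaging at least 500 reads. Each window holds 300 bases, 250 before and 50 after the gene start, from RefSeq in the build GRCm38.p6, printed 5′ to 3′ on the gene's strand. Capitals mark CpG dinucleotides, the sites of DNA methylation.
Ofd1 (chrX:166440655-166440954, minus strand): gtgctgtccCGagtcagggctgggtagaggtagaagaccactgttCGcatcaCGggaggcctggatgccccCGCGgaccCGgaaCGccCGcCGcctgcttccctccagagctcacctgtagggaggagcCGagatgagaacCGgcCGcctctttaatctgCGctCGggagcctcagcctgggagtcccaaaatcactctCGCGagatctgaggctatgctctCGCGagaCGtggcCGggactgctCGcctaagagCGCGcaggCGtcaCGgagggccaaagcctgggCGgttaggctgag
Yy2 (chrX:157568936-157569235, minus strand): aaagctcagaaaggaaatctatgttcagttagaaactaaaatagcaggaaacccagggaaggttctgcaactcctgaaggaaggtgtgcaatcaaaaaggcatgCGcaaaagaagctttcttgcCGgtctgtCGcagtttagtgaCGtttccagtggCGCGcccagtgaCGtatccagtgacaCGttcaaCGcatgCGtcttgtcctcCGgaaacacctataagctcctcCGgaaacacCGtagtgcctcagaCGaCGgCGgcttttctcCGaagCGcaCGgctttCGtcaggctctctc
Capn6 (chrX:143827363-143827662, minus strand): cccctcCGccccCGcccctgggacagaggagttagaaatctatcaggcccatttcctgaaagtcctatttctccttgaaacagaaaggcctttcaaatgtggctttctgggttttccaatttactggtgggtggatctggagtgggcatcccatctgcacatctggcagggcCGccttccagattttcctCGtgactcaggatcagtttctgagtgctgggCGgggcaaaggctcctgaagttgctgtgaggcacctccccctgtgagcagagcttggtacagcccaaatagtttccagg
Maged2 (chrX:150812930-150813229, minus strand): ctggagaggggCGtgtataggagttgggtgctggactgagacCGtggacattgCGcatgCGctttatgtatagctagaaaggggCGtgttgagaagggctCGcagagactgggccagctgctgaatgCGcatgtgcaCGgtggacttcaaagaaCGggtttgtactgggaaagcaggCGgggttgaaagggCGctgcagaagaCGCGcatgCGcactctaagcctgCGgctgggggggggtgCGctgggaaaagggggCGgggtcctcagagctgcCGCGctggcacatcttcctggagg
The Ofd1 window held 26 CpG and the Yy2 window 20, against 5 in the Capn6 window and 19 in the Maged2 window.

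Reads from the paternal, inactive X were more frequent in MD1 across the distal segment, and unevenly so from gene to gene. The paternal share, the JF1 percentage of allele-specific reads, averaged 11.95% and 11.1% over the 70 genes in the MD1 libraries and 0.197% and 0.175% in the WT libraries. The group means were 11.5% ± 0.617 in MD1 and 0.186% ± 0.0151 in WT (SD, n = 2), and both MD1 libraries lay far above both WT libraries. The median gene stood at 4.24% in MD1 and at 0% in WT. No JF1 read was found for 9 of the 70 genes in MD1 and for 36 in WT. Among all 391 informative X-linked genes these numbers were 43 in MD1 and 173 in WT. In these bulk samples, fewer cells with an active paternal copy and less paternal RNA per cell cannot be told apart.

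Single genes were tested with edgeR on JF1 and B6 reads, fitted over all 391 informative X-linked genes and adjusted over all of them at an FDR of 0.05. By this test 49 of the 70 distal genes rose in MD1, 0 fell and 21 did not pass, while 74.4% of all 391 genes rose. The 0 that fell stands against 0.256% of all 391 genes, DESeq2 also called 0, and at an unadjusted p under 0.05 edgeR had 0 and DESeq2 0 lower distal genes. Without overlap between the groups, MD1 was higher at 51 of the 70 genes, against 77.5% of all 391 genes. For the 49 genes that rose, the difference had a median of 12.2 points. Of the 60 genes averaging at least 100 reads 46 rose, and of the 10 shallower genes 3 rose. The same split over all informative X genes gave 269 of 328 and 22 of 63.

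The rise was frequent but often small. A mean share of 10% or more was reached by 27 of the 70 genes in MD1 (38.6%) and by 0 in WT, while 54.5% of all 391 genes reached it in MD1. Shares of 30% or more occurred at 12 distal genes in MD1, shares of 40% or more at 3, and none reached 50%. Of all 391 genes 115, 56 and 8 reached these bounds. At the low end 21 distal genes stayed under 1% in MD1, as did 91 of all 391 genes. The other 321 informative X genes had a median share of 16.4% in MD1 and 0.0586% in WT. They include Kdm5c, Smc1a, Tmem29 and Tmsb4x, which lie in the segment but were left out and had 22.6% to 39.4% in MD1. Of these, Kdm5c, Tmem29 and Tmsb4x had 30.3%, 16.0% and 14.4% in WT. No test was made of the difference between the distal genes and the rest of X.

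**Figure D1:**
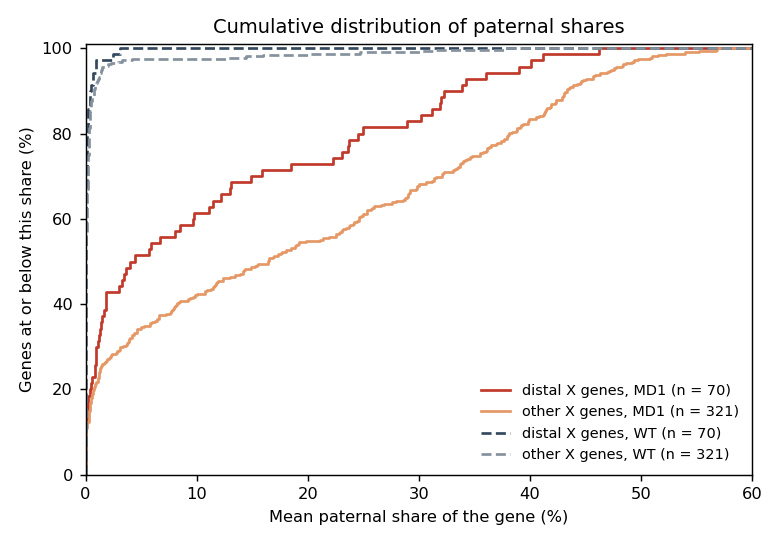
Cumulative distribution of the mean paternal share per gene (x axis, percent of allele-specific reads) for the 70 distal genes and the 321 other informative X genes, as the percentage of genes at or below each share (y axis), in MD1 (solid lines) and WT (dashed lines). In MD1 61.4% of the distal genes and 42.1% of the other genes lie under 10%, and in WT the curves of both sets rise steeply near 0. The other genes include Kdm5c, Smc1a, Tmem29 and Tmsb4x, which lie in the segment but were left out.

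Along the chromosome, high and low genes lay among each other. In map order, the 70 genes formed 33 runs that were all at 10% or more, or all under 10%, in MD1, and 18 of these runs were single genes. Whether this number of runs differs from that of a shuffled order was not tested. Between 140 and 145 Mb the median MD1 share of 4 genes was 1.11%, and between 145 and 150 Mb that of 21 genes was 1.80%. It was 6.69% for 9 genes at 150 to 155 Mb and 5.91% for 15 genes at 155 to 160 Mb. The 17 genes at 160 to 165 Mb had a median of 23.1%. The last 4 genes, beyond 165 Mb, had a median of 18.5%. From the first window to the last, 2 of 4, 12 of 21, 6 of 9, 10 of 15, 16 of 17 and 3 of 4 genes rose. Of all 391 informative X genes 74.4% rose. Every one of these windows had a WT median under 0.1%, and every window except the first and the last held at least 1 gene above 36% in MD1.

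**Figure D2:**
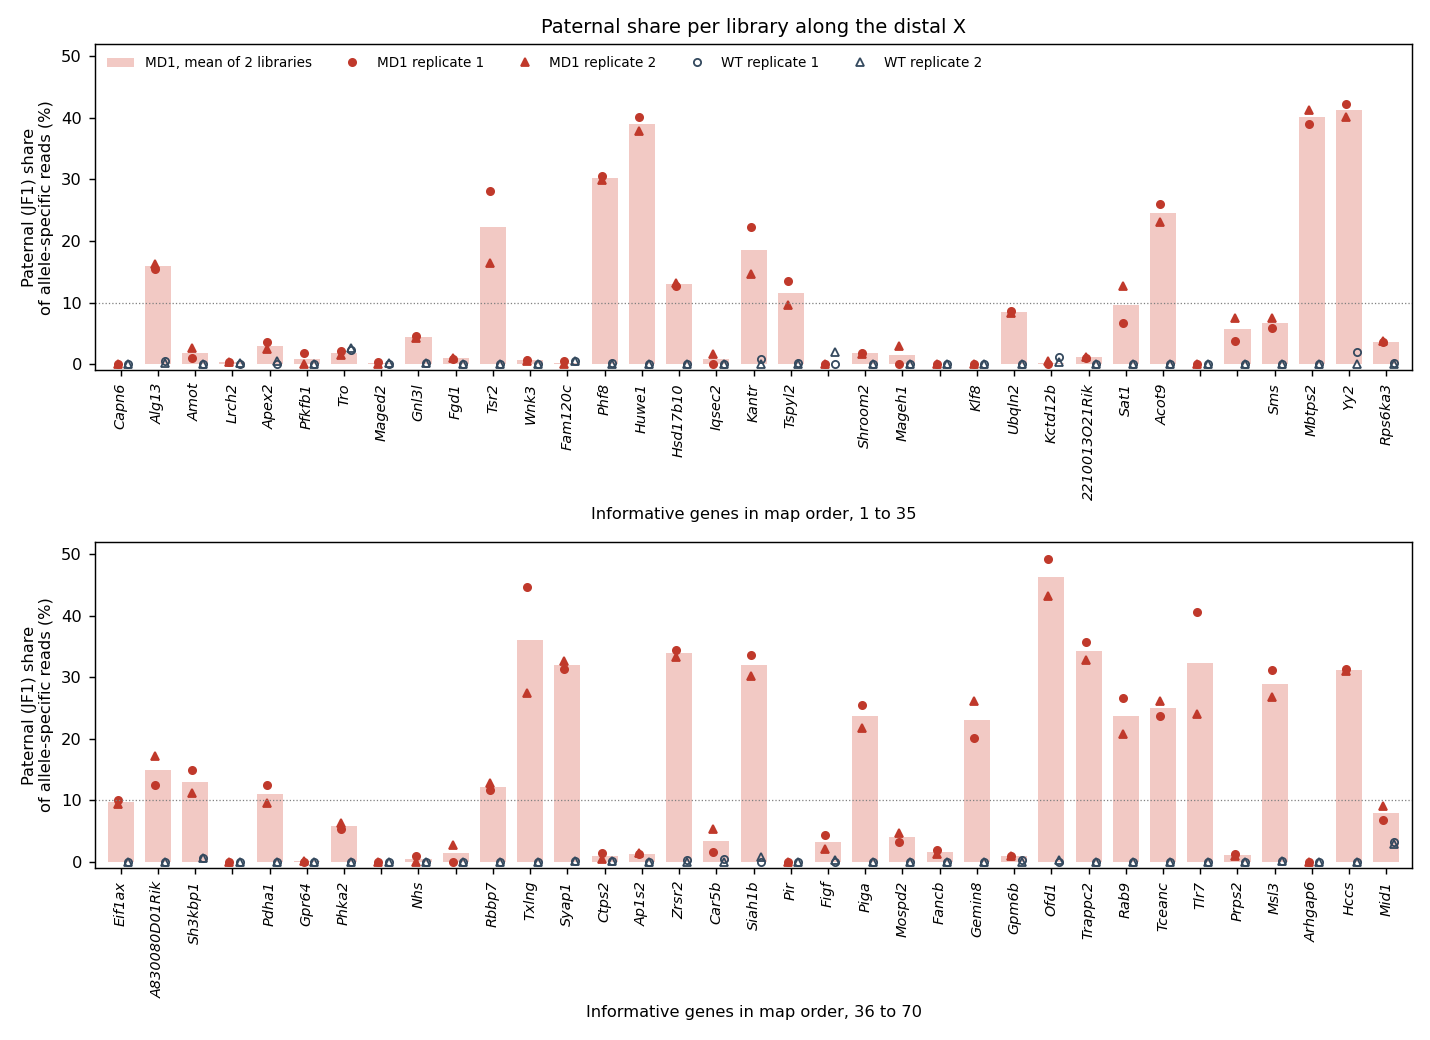
Paternal share of allele-specific reads (y axis, percent) for the 70 informative distal genes in map order (x axis, in 2 rows), with names for genes that rose or averaged at least 100 reads. Bars give the MD1 mean of 2 libraries, filled symbols the MD1 libraries and open symbols the WT libraries, and the dotted line stands at 10%. Some high MD1 genes stand beside genes near 0, such as Ofd1 at 46.2% beside Gpm6b at 0.966% and Hccs at 31.1% beside Arhgap6 at 0%. Others, such as Huwe1 at 39.0% and Mbtps2 at 40.1%, do not. The WT libraries stay at or below 3.29% for every gene.

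Adjacent genes often differed. Between the 69 pairs of adjacent informative genes the median difference in MD1 share was 10.6 points. Of all 69 pairs 22 differed by more than 20 points, and of the 33 pairs less than 50 kb apart 12 did. Ofd1 ends 0.999 kb from the end of Gpm6b, and the MD1 shares were 46.2% for Ofd1 and 0.966% for Gpm6b. Zrsr2 and Ap1s2, whose ends lie 1.78 kb apart, had 33.9% and 1.349%. Fgd1 and Tsr2 overlap at their ends by 2593 bases and had 0.960% and 22.3%. These were pairs whose genes run towards each other. Of 7 such pairs less than 5 kb apart, 4 differed by more than 20 points, and the median difference was 21.4 points. The 3 pairs that start less than 5 kb apart and run away from each other differed less, by 2.12 points for Apex2 and Pfkfb1, 2.37 points for Mospd2 and Fancb and 11.97 points for Ofd1 and Trappc2. The 5 close pairs that run in the same direction had a median difference of 5.82 points. This grouping by direction was made after the values were seen, it rests on few pairs, and it was not tested. Whether the reads were counted by strand is not given in the sources used here, so reads in the overlaps of Fgd1 with Tsr2, of Rbbp7 with Txlng, of Map3k15 with Pdha1 and of Yy2 with Mbtps2 cannot be assigned with certainty.

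The counts of each role list below are to be read against all 391 informative X genes, of which 74.4% rose, 54.5% reached 10% in MD1 and the median MD1 share was 13.0%. Of 10 informative genes of chromatin and transcription 7 rose, 7 reached 10% and the median MD1 share was 20.6%. Not all do what the list's name says, for example Siah1b, which encodes a ubiquitin ligase, and Mbtps2, a protease that releases membrane-bound transcription factors. The 3 genes of the list that did not pass were Tro, Maged2 and Klf8. Yy2 (X, 154004051 to 154006917, mm9), a relative of the transcription factor gene Yy1 that lies inside Mbtps2, had 42.3% and 40.1% in MD1 and 1.96% and 0% in WT, from 97 and 147 reads in MD1 and 51 and 49 reads in WT. Both MD1 libraries were far above both WT libraries (rise of 40.2 points, edgeR adjusted p = 3.73e-09). Mbtps2 (X, 153985754 to 154036647) had 38.9% and 41.2% in MD1, and 0 of 838 WT reads were paternal, which allows up to 0.358%. Its rise was 40.1 points (edgeR adjusted p = 6.40e-52). As the pair overlaps on the same strand, their values are not independent.

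The other genes of this list that rose did so by less. Phf8 (X, 147955215 to 148068400), a histone demethylase gene, had 30.6% and 29.9% in MD1 and 0.225% and 0% in WT (edgeR adjusted p = 3.41e-38). Msl3, a subunit of a complex that acetylates histone H4, had 31.1% and 26.8% in MD1 and 0.134% and 0.136% in WT (edgeR adjusted p = 9.84e-60). Siah1b had 33.6% and 30.3% in MD1 and 0% and 0.769% in WT (edgeR adjusted p = 1.85e-14). In these 3 genes the groups were apart. Rbbp7, which encodes a histone-binding subunit of several chromatin complexes, had 12.2% ± 0.778 in MD1 and no paternal read in WT (SD, n = 2). Tspyl2, of the nucleosome assembly protein family, had 13.4% and 9.54% in MD1 and 0.116% and 0% in WT. Klf8, a zinc-finger transcription factor gene, showed no paternal read among 345 in MD1 and 275 in WT, which allows up to 0.870% in MD1 and 1.09% in WT.

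Ubiquitin and DNA repair genes included the deepest of the strong responders. Huwe1 (X, 148237825 to 148369961), which encodes a very large ubiquitin ligase, had 40.1% and 37.9% in MD1 and 0.0308% and 0% in WT. With 5298 and 5827 reads in MD1 and 3247 and 2260 reads in WT, its values are the best covered of the strong responders (rise of 39.0 points, edgeR adjusted p = 3.20e-110). Ubqln2, which shuttles ubiquitinated proteins to the proteasome, had 8.71% and 8.30% in MD1 and 0% and 0.0702% in WT. Apex2, an endonuclease gene of base excision repair, and Fancb, of the Fanconi anaemia repair pathway, rose to 3.01% and 1.66% in MD1, against 0.243% and 0% in WT. Of the 5 informative genes on this list 4 rose, and Kctd12b, at 0.224% in MD1 and 0.704% in WT, did not pass.

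Of 7 RNA processing and translation genes 6 rose, beside 74.4% of all 391 genes, with a median MD1 share of 22.3%. Zrsr2 (X, 160373375 to 160396598), a splicing factor gene, had 34.5% and 33.3% in MD1 and 0.327% and 0% in WT (edgeR adjusted p = 1.99e-62). Tsr2, which takes part in ribosome assembly, had 28.2% and 16.4% in MD1 and none of 717 WT reads, which allows up to 0.418%. The 2 MD1 libraries of Tsr2 had Wilson 95% intervals that did not overlap. Gemin8, of the complex that assembles spliceosomal particles, had 20.1% and 26.1% in MD1, and Tceanc had 23.8% and 26.2%. Neither had a paternal read in WT. Eif1ax, a translation initiation factor gene with 3140 and 4759 reads in MD1, stood lower, at 10.1% and 9.41% in MD1 and 0.0473% and 0.0668% in WT. Gnl3l, a nucleolar GTPase gene, had 4.57% and 4.32% in MD1 and 0.142% and 0.219% in WT. Fam120c, at 0.262% in MD1 and 0.497% in WT, did not pass.

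All 7 membrane traffic genes rose and 5 reached 10% in MD1, beside 74.4% and 54.5% of all 391 genes. Txlng, which encodes a taxilin that binds syntaxins, had 44.7% and 27.5% in MD1 from 123 and 182 reads and no paternal read in WT (edgeR adjusted p = 9.26e-14). Trappc2 (X, 162878757 to 162890475), a subunit of the TRAPP tethering complex, had 35.8% and 32.7% in MD1 and none of 491 reads in WT (edgeR adjusted p = 5.31e-29). Syap1 had 31.3% and 32.6% in MD1 and 0.236% and 0.130% in WT (edgeR adjusted p = 2.33e-94). The MD1 libraries were close for Trappc2 and Syap1 and apart for Txlng, the gene with the largest SD in MD1, 12.2 points. Rab9, a GTPase gene of late endosomes, reached 23.7% ± 4.14 in MD1 and Sh3kbp1, an endocytic adaptor gene, 13.1% ± 2.62 (SD, n = 2), against 0% and 0.665% in WT. Ap1s2, a subunit of the clathrin adaptor AP-1, had 1.26% and 1.44% in MD1 and 0% in both WT libraries. Mospd2 had 3.29% and 4.78% in MD1 and 0% and 0.0347% in WT.

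Mitochondrial and metabolic genes had MD1 shares from 0% for Pir to 31.1% for Hccs. Of 13 informative genes 11 rose and 5 reached 10%, with a median MD1 share of 6.69%. Hccs (X, 165749463 to 165758275), the enzyme that attaches haem to cytochrome c, had 31.3% and 30.9% in MD1 and none of 2161 WT reads, which allows up to 0.139% (edgeR adjusted p = 3.52e-83). Acot9 (X, 151697043 to 151732050), a mitochondrial acyl-CoA thioesterase gene, had 26.0% and 23.1% in MD1 and 0.0555% and 0.0533% in WT (edgeR adjusted p = 1.38e-87). Piga, needed for the first step of GPI anchor synthesis, had 25.5% and 21.8% in MD1 and no paternal read in WT. All 3 were well apart from WT. Pdha1, the E1 alpha subunit of pyruvate dehydrogenase and the deepest informative gene of the segment at 6380 and 9782 reads in MD1, had 12.6% and 9.59% in MD1 and 0.0555% and 0.0751% in WT. Hsd17b10, a mitochondrial dehydrogenase gene, had 12.7% and 13.2% in MD1 and 0% and 0.102% in WT. Of the enzymes of polyamine metabolism, Sms, the spermine synthase gene, had 5.80% and 7.57% in MD1 and no paternal read in WT. Prps2, of nucleotide synthesis, and Ctps2, which makes CTP, had 1.19% and 0.972% in MD1, against 0% and 0.0976% in WT. Phka2, a regulatory subunit of phosphorylase kinase, had 5.44% and 6.37% in MD1 and no paternal read in WT. Pir, which had none of 329 paternal reads in MD1, and Pfkfb1, with 2 of 232, did not pass. The call for Ctps2 was lost without MD1 replicate 1 (edgeR adjusted p = 0.188, against 0.000558 with all libraries).

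Sat1 (X, 151647669 to 151650992), the spermidine and spermine acetyltransferase gene, had 6.67% and 12.6% in MD1 and 0% in both WT libraries (edgeR adjusted p = 1.26e-12). Its MD1 shares rest on 2 of 30 and 11 of 87 reads, while WT had 788 and 1079 allele-specific reads. Its FPKM was 145.5 in MD1 and 155.7 in WT. The allele-specific reads of Sat1 were thus far fewer in MD1 at a like total level. As log2 of the MD1 over WT ratio of allele-specific reads, relative to all X-linked reads, minus the log2 ratio of FPKM, Sat1 stood at -4.45. The median of 357 informative genes past the FPKM filter was -0.26, and the next lowest distal gene, Trappc2, stood at -0.54. What lowers the reads of Sat1 was not tested, and its MD1 share should be read with its low depth.

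Most cytoskeletal and adhesion genes had low shares in MD1. Of 9 informative genes on this list 5 rose, but the median MD1 share was 1.39% and only Ofd1 reached 10%. Mid1, which is also on this list and is described below, had 8.02%. Ofd1 (X, 162827965 to 162878636), a gene of centrioles and the base of cilia, had 49.2% and 43.3% in MD1 and 0% and 0.253% in WT (rise of 46.1 points, edgeR adjusted p = 1.35e-51). It was the highest of the 70 genes. Amot (X, 141880967 to 141922182), which encodes the junction protein angiomotin, had 1.08% and 2.60% in MD1 and 0.0733% and 0.0860% in WT, from 2324 and 4307 reads in MD1 and 2728 and 3489 reads in WT (edgeR adjusted p = 6.87e-18). The rise of Amot is small, and its MD1 libraries had Wilson 95% intervals that did not overlap, yet both stood above WT. Shroom2, an actin-binding protein gene, had 1.88% and 1.73% in MD1 and none of 2740 WT reads. Fgd1, an exchange factor gene for Cdc42, had 0.876% and 1.05% in MD1 and none of 919 WT reads (edgeR adjusted p = 0.00235, and 0.0657 without MD1 replicate 2).

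Capn6 (X, 140236780 to 140261955), a calpain gene whose product lacks protease activity, is the first gene of the segment. It had none of 862 paternal reads in MD1, which allows up to 0.348%, and 1 of 1723 in WT. The gene just before the bound, Pak3, had 0.520% and 0.316% in MD1 and 0% in both WT libraries. Arhgap6, a GTPase-activating protein gene next to Hccs, had no paternal read among 314 in MD1 and 419 in WT. Nhs and Reps2 had at most 1 paternal read in MD1 and did not pass.

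Mid1 (X, 166123131 to 166428729), a ubiquitin ligase gene that binds microtubules, is the last informative gene and crosses the pseudoautosomal boundary in C57BL/6 mice. It had the highest WT share of the 70 genes, the left-out Kdm5c, Tmem29 and Tmsb4x being higher at 30.3%, 16.0% and 14.4%. Its shares were 6.87% and 9.17% in MD1 and 3.29% and 2.94% in WT, from 2882 and 3426 reads in MD1 and 3378 and 5168 reads in WT (rise of 4.90 points, edgeR adjusted p = 9.56e-10). Car5b, a mitochondrial carbonic anhydrase gene that like Mid1 is on the list of known escape genes, had 1.65% and 5.31% in MD1 and 0.444% and 0% in WT (edgeR adjusted p = 3.65e-05, and 0.162 without MD1 replicate 2). Neither reached 10% in either group. Of the 70 genes, the only other with a mean share above 1% in WT was Tro, which encodes trophinin. Tro had 2.10% and 1.55% in MD1 and 2.30% and 2.60% in WT. Both MD1 libraries of Tro lay below both WT libraries, the single such case among the 70 genes against 0.767% of all 391 genes, and the test did not pass (edgeR adjusted p = 0.684).

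Kinase genes had low shares in MD1. Of 5 kinases and signalling adaptors 1 rose, Rps6ka3, which encodes the kinase RSK2, with 3.55% and 3.80% in MD1 and 0.172% and 0.0907% in WT (edgeR adjusted p = 1.37e-14). Wnk3, Iqsec2 and Rragb had at most 2 paternal reads in MD1 and none in WT. Of 6 receptors, ligands and channels 3 rose, while 74.4% of all 391 genes did. Tlr7, a receptor for single-stranded RNA, had 40.5% and 24.0% in MD1 and 0% in both WT libraries, but from 37 and 25 reads in MD1 and 24 and 25 reads in WT (edgeR adjusted p = 0.00101). Figf, the gene of the lymphatic growth factor VEGF-D, had 4.46% and 2.04% in MD1 and 0% and 0.267% in WT (edgeR adjusted p = 3.11e-05, and 0.153 without MD1 replicate 1). Gpm6b, a membrane glycoprotein gene, had 0.968% and 0.963% in MD1 and 0.318% and 0% in WT. It passed narrowly (edgeR adjusted p = 0.0409), DESeq2 gave an adjusted p of 0.128, and the replicate block gave 0.133.

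Gpr173 (X, 148779189 to 148802654), an orphan receptor gene, had none of 171 paternal reads in MD1, which allows up to 1.75%. In WT it had 0 of 92 and 1 of 52 reads, and it did not pass (edgeR adjusted p = 0.420). Its end lies 2.16 kb from the start of Tspyl2, which had 11.5% in MD1. Phex, an endopeptidase gene of phosphate balance, had 3.85% and 7.55% in MD1 from 26 and 106 reads and no paternal read in WT, without passing (edgeR adjusted p = 0.0749). Gpr64, an adhesion receptor gene, had 1 paternal read among 963 in MD1 and none of 713 in WT.

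Of 8 informative genes on none of these lists 5 rose. Alg13, a subunit of an enzyme of N-glycosylation, had 15.4% and 16.3% in MD1 and 0.536% and 0.209% in WT (edgeR adjusted p = 8.45e-23). Kantr, a noncoding RNA gene beside Kdm5c, had 22.2% and 14.7% in MD1 and 0.766% and 0% in WT. A830080D01Rik had 12.5% and 17.3% in MD1 and no paternal read in WT. The share of 2210013O21Rik was 1.05% and 1.24% in MD1 and 0% in both WT libraries (edgeR adjusted p = 0.00152, and 0.0591 without MD1 replicate 2). Ptchd1 and Map3k15 had no paternal read in either group. Mageh1 had 0 of 146 and 5 of 167 paternal reads in MD1, so that a single MD1 library carried its call (edgeR adjusted p = 0.0337, and 1 without MD1 replicate 2). DESeq2 gave an adjusted p of 0.314 for Mageh1, and edgeR without WT replicate 1 or 2 gave 0.123 and 0.106. Maged2, on the chromatin list, and Lrch2 did not pass despite their depth. Maged2 had 0.305% and 0% in MD1 and 0% and 0.165% in WT from 1604 reads in MD1 and 2638 in WT, and Lrch2 had 0.369% and 0.406% in MD1 and 0% and 0.114% in WT (edgeR adjusted p = 0.0812, and 0.0394 without WT replicate 2).

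**Figure D3:**
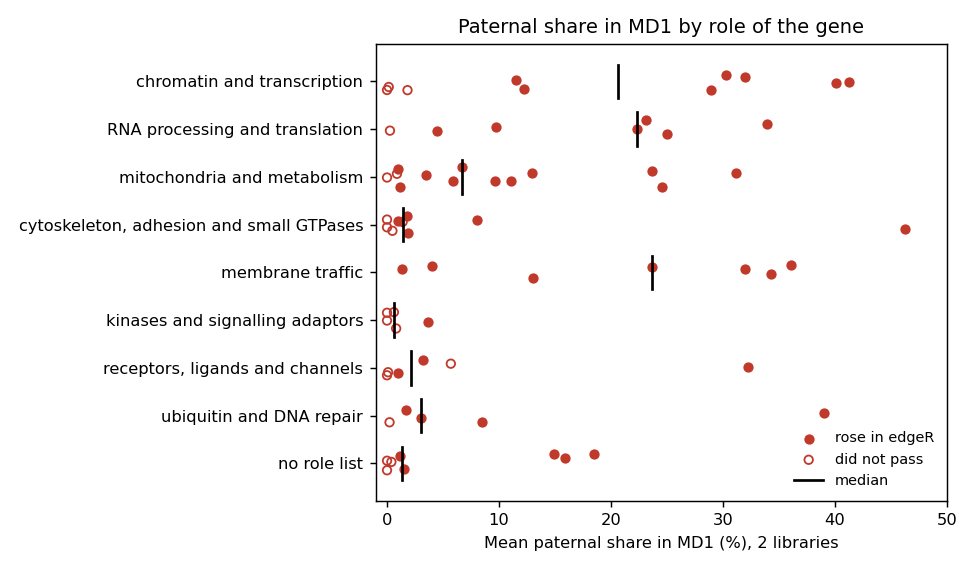
Mean paternal share in MD1 (x axis, percent, 2 libraries) of each informative distal gene, by role list (y axis), with genes that rose in edgeR filled and genes that did not pass open, and the median of each list as a black line. Medians range from 0.614% for kinases and signalling adaptors to 23.7% for membrane traffic, and most lists hold both high and near-silent genes.

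The lists are small and were made with earlier results of these data known, so the differences between them are a description. The MD1 libraries ranked the 70 genes alike (Spearman's rho of 0.94 across genes, which share libraries and are not independent replicates). The median gap between the MD1 libraries was 1.12 points. In 7 genes their Wilson 95% intervals did not overlap, namely Amot, Tsr2, Tspyl2, Sh3kbp1, Pdha1, Txlng and Mid1. Near the 10% bound, 6 genes had MD1 shares of 8% to 12%, Tspyl2, Ubqln2, Sat1, Eif1ax, Pdha1 and Mid1.

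Promoter sequence was set beside these shares. RefSeq promoter windows could be matched for 60 of the 70 genes, 4 of them through another symbol, and where a gene had several windows the one with most CpG was taken. The observed over expected CpG ratio, which corrects the CpG number for base content, had a median of 0.814 for the 25 genes at 10% or more in MD1 and 0.633 for the 35 genes under 10%. It was 0.6 or more for 22 of the 25 and for 19 of the 35. Median GC content was 61.0% and 61.7% in these sets. Across the 60 genes, Spearman's rho of the ratio with the MD1 share was 0.42, as a description of genes that share libraries. Exceptions ran both ways. Ap1s2, at 1.03, Ptchd1, at 0.946, and Fgd1, at 0.892, stayed under 2% in MD1, while Rab9 and Kantr, both at 0.425, reached 23.7% and 18.5%.

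**Figure D4:**
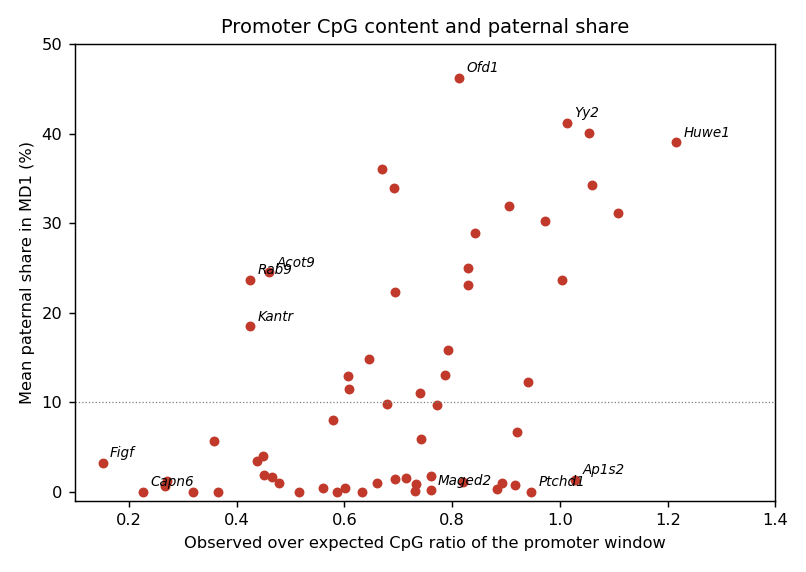
Observed over expected CpG ratio of the 300-base promoter window (x axis) against the mean paternal share in MD1 (y axis, percent, 2 libraries) for 60 distal genes, each a point, with a dotted line at 10%. The genes above 30% in MD1, such as Ofd1 at 46.2% and Yy2 at 41.2%, all have ratios above 0.6, and genes near 0% occur across the range.

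In the Ofd1 promoter printed above the palindrome TCTCGCGAGA occurred 2 times, and it was then searched in all windows. It occurred in 3 of the 60 windows (5%), those of Huwe1, Ofd1 and Trappc2, against 0.466% of the 32851 windows in the table. Among the 27025 windows left when the 1 with most CpG was kept per gene, 0.488% held it. These sets are unlike, since the distal windows had a median of 19.5 CpG, against 8 in those 27025 windows, and the palindrome itself contains CpG. The Ofd1 and Trappc2 windows share 150 bases, since these genes start close together and run in opposite directions, so 2 of the 3 matches are the same DNA. The motif AANATGGCG, searched on both strands, occurred in 1 window, that of Phf8, against 2.38% of all windows. A match is a description of the letters and not of a bound site, and the motif that was noticed first in Ofd1 cannot be tested on it.

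Total RNA was higher in MD1 for most genes with a high paternal share. FPKM was deposited as 1 mean per group, so its ratios have no replicate check and no test. Ratios are log2((FPKM in MD1 + 1)/(FPKM in WT + 1)), and 67 distal genes entered, those that averaged at least 1 FPKM over the groups and were not at 0 in either. The median log2 ratio was 0.087, with 40 of the 67 genes higher and 27 lower in MD1, while 50.8% of all 11399 genes measured were higher. The autosomal median was 0.0012 and that of the 331 other X-linked genes 0.23. Kept to genes averaging at least 5 FPKM, the distal median was 0.24. Among the 25 genes at 10% or more paternal share in MD1, 23 had a higher FPKM and the median was 0.42. Among the 39 genes under 10% in MD1, 15 were higher and 24 lower, with a median of -0.092. Across 64 distal genes Spearman's rho between the rise in share and the log2 FPKM ratio was 0.65, and across 293 other X genes it was 0.67, both as descriptions.

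A ratio of 1.5-fold or more was seen for 7 distal genes higher in MD1, against 6.05% of all genes measured, and for 5 lower, against 7.65%. A single distal gene was at least 2-fold higher in MD1, against 1.39% of all 11399 genes, and 2 were at least 2-fold lower, against 2.81%. Siah1b had 10.7 FPKM in MD1 and 4.07 FPKM in WT (log2 ratio 1.21). Yy2 had 4.82 FPKM in MD1 and 2.44 FPKM in WT, Mbtps2 14.9 FPKM in MD1 and 8.43 FPKM in WT, and Huwe1 46.6 FPKM in MD1 and 27.9 FPKM in WT. Ofd1 had 7.77 FPKM in MD1 and 4.47 FPKM in WT, and Zrsr2 20.3 FPKM in MD1 and 12.3 FPKM in WT. The 6 genes with the highest ratios thus all had a paternal share above 30% in MD1. Of the other genes above 30%, Txlng had 7.31 FPKM in MD1 and 5.19 FPKM in WT, Hccs 20.6 FPKM in MD1 and 15.3 FPKM in WT, and Syap1 40.4 FPKM in MD1 and 32.2 FPKM in WT. The totals of Phf8 and Trappc2 were closer. Phf8 had 7.85 FPKM in MD1 and 7.72 FPKM in WT, and Trappc2 had 11.3 FPKM in MD1 and 10.4 FPKM in WT.

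The 6 lowest ratios belonged to 5 genes with an MD1 paternal share under 2% and to Grpr, which was too shallow to test. Grpr, the bombesin receptor gene, had 0.363 FPKM in MD1 and 2.21 FPKM in WT, and Capn6 had 6.77 FPKM in MD1 and 15.3 FPKM in WT. Tro had 2.22 FPKM in MD1 and 4.97 FPKM in WT, Maged2 40.4 FPKM in MD1 and 71.5 FPKM in WT, Kctd12b 0.850 FPKM in MD1 and 1.95 FPKM in WT, and Nhs 0.898 FPKM in MD1 and 1.83 FPKM in WT. Mid1 and Car5b also had lower totals, at 15.1 and 1.54 FPKM in MD1 and 22.3 and 2.68 FPKM in WT. Other differences between the cultures cannot be told apart from the genotype in these ratios.

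**Figure D5:**
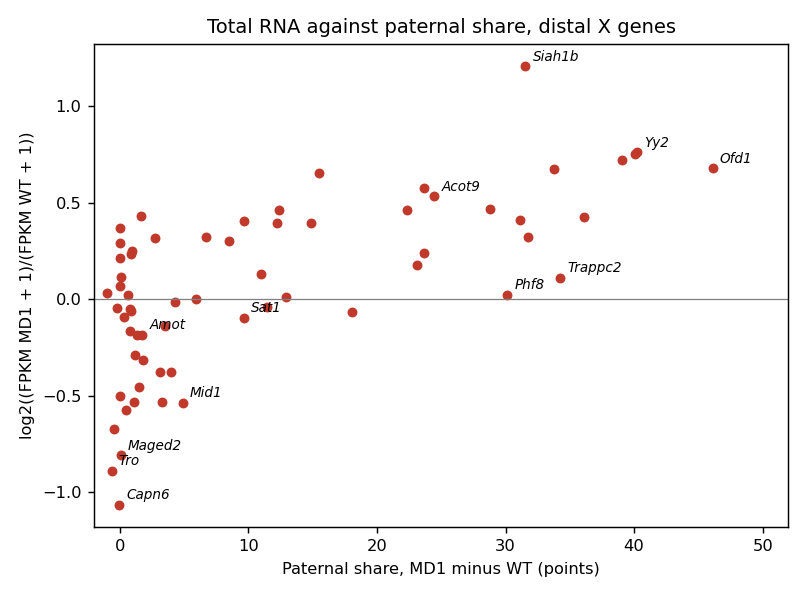
Paternal share in MD1 minus that in WT (x axis, points) against the log2 ratio of (FPKM + 1) in MD1 over WT (y axis) for 64 informative distal genes past the FPKM filter, each a point from group means. Points with a rise above 20 points lie above 0 on the y axis, while those near 0 points spread from -1.07 for Capn6 upwards.

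Of the silencing machinery, 21 genes were measured, with a median log2 FPKM ratio of 0.17, 14 higher and 7 lower. Of all 11399 genes measured 50.8% were higher. The lower genes were Smchd1, Ring1, Dnmt3a, Pcgf5, Pcgf3, Cdyl and Ciz1. The highest ratios were those of Dnmt1 and Ezh2. Dnmt1, the maintenance DNA methyltransferase gene, had 43.4 FPKM in MD1 and 25.7 FPKM in WT, and Ezh2, the Polycomb methyltransferase gene, 33.0 FPKM in MD1 and 20.1 FPKM in WT. Ring1 had 4.30 FPKM in MD1 and 6.28 FPKM in WT, and Dnmt3a 4.78 FPKM in MD1 and 5.87 FPKM in WT. These differences were not tested.

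The 68 distal genes that were not informative were mostly little expressed, 61 of them under 1 FPKM in both groups. Prdx4, a peroxiredoxin gene, was an exception, at 121.1 FPKM in MD1 and 90.6 FPKM in WT without an allele-specific read in any library, so nothing can be said of its paternal copy. The last gene of the segment in map order, G530011O06Rik, had none of 42 paternal reads in MD1 and 3 reads in WT.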

How the data were processed

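Polyadenylated RNA of 4 libraries was sequenced with a stranded kit, per the labels' protocols. The authors deposited allele-specific read counts of each library by gene, with the JF1 share as a fraction (given at 10 or more reads) and total expression as an FPKM mean per group. The submitters' processing notes list Cuffdiff, Cufflinks 2.2.1 and the build mm9. How reads were aligned, which JF1 variants were used and which annotation is not stated in the labels or headers. A mapping bias toward B6 alleles would make JF1 shares too low in MD1 and WT alike. Share times reads was whole within 0.001 for 100% of values, which gave JF1 counts.

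edgeR 4.0.16 (R 4.3.3) tested JF1 and B6 counts by the quasi-likelihood F-test, two-sided, with terms for library, allele and allele by genotype, library sizes set to the allele-specific total, and Benjamini-Hochberg adjustment over 391 genes. The test was tested on simulated data. DESeq2 1.42.0, other library sizes, read minimums, a replicate block and leaving out each library were alternatives. The limma test planned for FPKM could not be fitted to 1 mean per group. Intervals are Wilson 95%, and the limit for 0 reads is 3 reads of the total. Both cover counting error only. The allele-specific read totals per gene differed between replicates beyond sampling noise, so no library was counted as a repeat of another (chi-square per degree of freedom of 90.6 in MD1 and 98.1 in WT). Starts in the table count from 0 and are printed 1-based in mm9, while promoter windows are in GRCm38.p6. The genes and lists were chosen with earlier results of these data known. Named genes were Amot, Gpr173, Sat1, Mid1, the 15 largest rises, the 10 lowest MD1 shares at a mean of 500 or more reads, the first and last genes, the last gene before 140 Mb, the 6 highest and 6 lowest FPKM ratios, escape genes, and any gene that fell or had 5% or more in WT (none), and others were named for their role after their values were seen. Values of 1 gene are not reported here.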

Additional observations from a re-analysis of the deposited data

Results flagged for a closer look

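Ribc1, which encodes a protein of ciliary microtubules, lay outside the allelic test because its WT reads were too few. In MD1 35 of its 85 allele-specific reads were paternal, or 41.2% (Wilson 95% interval 31.3% to 51.8%), and the 10% bound lies below that interval. In WT, replicate 2 had 0 of 11 paternal reads, and replicate 1 had 6 reads and no share. Its FPKM was 1.27 in MD1 and 0.541 in WT.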

How the results depend on the processing

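The number of distal genes that rose, 49, was 47 with DESeq2 and 49 with TMM library sizes. It was 49 without a read minimum, which added no distal gene to the 70 tested. At a mean of 100 reads or more the number was 46, and at an FDR of 0.01 it was 47. It was 44 to 48 with each library left out in turn, and 42 genes were called in all 4 of these fits. No gene fell in any of them. Leaving out a library leaves 1 in its group, which is then assumed to vary like the others. With the replicate block the number was 47. The deviations of same-numbered libraries correlated at 0.058 over 391 genes, so the numbers were not taken as pairs. The difference in mean share, 11.3 points, was 10.9 to 11.8 with libraries left out and 14.0 when reads were pooled over genes, since abundant genes weigh more. The number at 10% or more in MD1 was 26 to 28 with libraries left out, 34 at a bound of 5% and 19 at a bound of 20%. For FPKM, a filter at 5 gave a median of 0.24 with 25 genes higher and 16 lower, as fewer genes enter, and no filter gave a median of 0.0094 with 50 lower. Of the 49 genes, 7 lost their call in at least 1 fit, namely Fgd1, Gpm6b, Ctps2, Car5b, Figf, Mageh1 and 2210013O21Rik, and Lrch2 gained one without WT replicate 2. Calls were fewer among genes averaging under 100 reads, 3 of 10, and whether depth sets this was not tested.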
